A study of Homo sapiens with 12 samples.

Results

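The 47 genes described here encode the enzymes that build, lengthen and desaturate fatty acids, attach them to coenzyme A, release them again and oxidise them, with 1 fatty acid binding protein (*FABP5*) and 1 nuclear receptor (*PPARA*). They were selected by gene symbol, without the carnitine shuttle, from the 22441 genes of the MEC1 table, where 46 were listed, and from the 17144 genes of the JVM2 table, where 45 were listed. *ELOVL4* was listed for neither line and *ELOVL7* only for MEC1. All 46 listed members passed the filter on low counts in MEC1, and 44 did in JVM2, where *ACSL6* had 0 to 4 counts in each library. By role, 19 were synthesis genes (4 cytosolic, 3 mitochondrial, 7 of elongation, 5 desaturases), 18 were oxidation genes (15 mitochondrial, 3 peroxisomal), 8 encoded acyl-CoA synthetases and thioesterases, and 2 were the binding and regulatory genes.

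Total RNA was sequenced from 12 libraries, 3 biological replicates of each of 4 populations of 2 established human lines of neoplastic B cells, MEC1 and JVM2. MEC1-2B17 and JVM2-2B17 cells carried a pcDNA6 vector with the *UGT2B17* coding sequence and were grown in blasticidin. UGT2B17 is an enzyme that conjugates steroids and other lipids with glucuronic acid. JVM2-CTRL cells carried the empty pcDNA6 vector and were grown in blasticidin too, whereas MEC1-CTRL cells were a knock-down of *UGT2B17* made with an shRNA and were grown in puromycin. The MEC1 arms thus differed in construct and antibiotic as well as in *UGT2B17*, and effects of these cannot be told apart in that line. Whether a population was 1 clone is not given in the sources used here, and *P*-values measure only the spread between the replicates of each population.

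Fatty acid synthesis starts in the cytosol, where ATP citrate lyase (*ACLY*) makes acetyl-CoA, acetyl-CoA carboxylase (*ACACA*) turns it into malonyl-CoA, and fatty acid synthase (*FASN*) assembles palmitate from both. Elongases and desaturases of the endoplasmic reticulum then lengthen the chain and insert double bonds, and the path from linoleic to arachidonic acid, the precursor of prostaglandins, runs through the desaturases *FADS2* and *FADS1*. Oxidation runs the other way, in mitochondria and peroxisomes, where repeated rounds of dehydrogenation, hydration, dehydrogenation and thiolysis release acetyl-CoA. The second carboxylase, *ACACB*, sits at the mitochondrial surface, where its malonyl-CoA is known to restrain the entry of fatty acids into oxidation.

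Levels are given below as CPM, the count of a gene scaled to library size after TMM normalization, and the change of a gene as the log2 fold change in 2B17 relative to CTRL cells with its standard error (SE). *P*-values come from the quasi-likelihood test of edgeR with Benjamini-Hochberg adjustment across every gene tested in that line. A gene passed when the adjusted value was below 0.05. *UGT2B17* itself stood at 11.8, 10.8 and 10.4 CPM in MEC1-CTRL and at 22.7, 20.6 and 20.1 CPM in MEC1-2B17 replicates (log2 fold change 0.94, SE 0.069, adjusted *P* = 2.0e-09). In JVM2 it went from 29.7, 26.2 and 27.3 CPM to 35.2, 45.2 and 35.6 CPM (log2 fold change 0.48, SE 0.11, adjusted *P* = 0.0048). The arms did not overlap in either line, in the direction of their labels. Libraries held 31762649 to 37744991 counts in MEC1 and 8809179 to 11231330 in JVM2. JVM2-2B17 replicate 2 and MEC1-CTRL replicate 3 stood apart from the other replicates of their groups, with a mean chi-square per gene of 8.43 and 8.62, and of 8.56 and 6.86, where other pairs gave 2.25 to 5.40.
All 8 B-cell markers were listed in each group, with summed levels of 3336 to 4235 CPM, and none of 5 erythroid genes was listed. In MEC1, the summed level of the 3 of 4 listed NK-cell markers lay at 23.4 to 25.8 CPM in CTRL and at 8.16 to 9.09 CPM in 2B17 replicates, with *NCAM1* not listed. That of the 5 of 6 listed T-cell markers lay at 19.1 to 19.3 CPM in CTRL and at 11.5 to 12.3 CPM in 2B17 replicates, with *CD3D* not listed. In JVM2, 2 of the 4 NK-cell markers were listed (not *NCAM1* or *GNLY*), with sums of 1.49 to 2.79 CPM and 1.47 to 3.48 CPM, and of the T-cell markers only *TRAC* was listed, at 44.4 to 49.4 CPM and 31.5 to 40.3 CPM. The summed level of the listed myeloid markers (5 of 7 in MEC1, 3 of 7 in JVM2, *S100A8* and *S100A9* in neither) lay at 2.35 to 2.92 CPM in CTRL and 4.74 to 5.30 CPM in 2B17 replicates of MEC1, and at 5.40 to 6.57 CPM and 11.1 to 13.8 CPM in JVM2. These sums hid genes that moved differently. In MEC1, *ITGAM* rose (log2 fold change 1.58) and *CSF1R* fell (-0.71), while *LYZ* (0.49) did not pass. *GNLY* (-1.99) and *KLRD1* (-0.83) fell there, and *NKG7* (0.44) did not pass. Of the listed T-cell markers in MEC1, only *TRAC* (-0.70) passed the filter on low counts. In JVM2, *ITGAM* (1.22) rose and was the only myeloid marker tested, and *TRAC* (-0.33) fell. Both lines are established B-cell lines, so these transcripts need not come from NK, T or myeloid cells. Which cells they came from was not tested. In bulk RNA, fewer cells that express a gene and less RNA per cell cannot be told apart. The 8 proliferation genes summed to 3138 to 3166 CPM in MEC1-CTRL and 2916 to 3018 CPM in MEC1-2B17 replicates, and to 3013 to 3100 CPM and 2938 to 2983 CPM in JVM2. Gene by gene, 0 were higher and 3 lower of 8 in MEC1, 37.5% beside 41.7% of all genes tested. In JVM2, 1 was higher (*MCM3*, log2 fold change 0.21) and 0 lower of 8, 12.5% beside 29.3%.

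Fatty acid genes changed in both lines. In MEC1, 9 of the 46 members tested were higher and 15 lower in 2B17 cells, a share of 52.2% beside 41.7% of all 16581 genes tested (20.0% higher, 21.6% lower). In JVM2, 12 of 44 were higher and 9 lower, 47.7% beside 29.3% of all 13021 genes (14.1% higher, 15.3% lower). Of the desaturases, 4 were lower and 0 higher of 5 in MEC1, and 3 lower and 0 higher of 5 in JVM2. The mitochondrial oxidation genes were split in MEC1, with 4 higher and 5 lower of 15, and in JVM2 7 of the same 15 were higher and 0 lower. The median log2 fold change over members was -0.038 in MEC1 and 0.064 in JVM2, beside 0.0026 and 0.00012 over all genes tested.

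**Figure D1:**
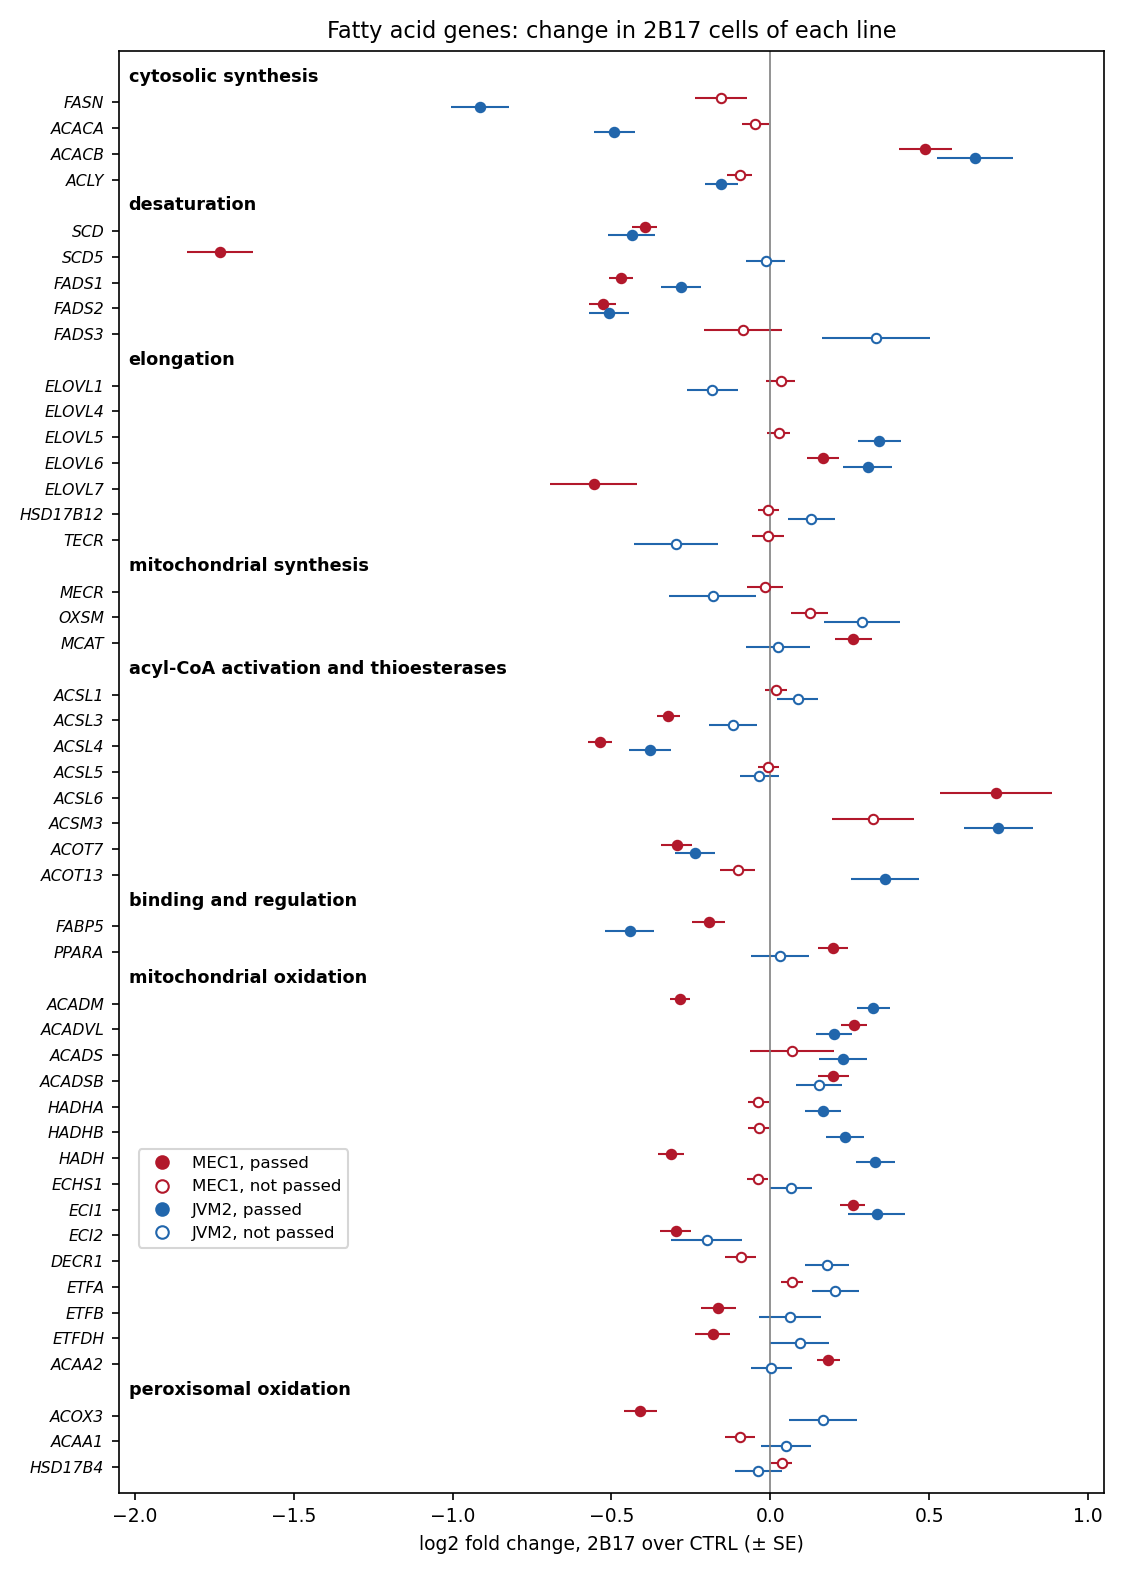
Log2 fold change, 2B17 relative to CTRL (x axis, bars are ± SE, 3 replicates against 3) of each member, grouped by role, in MEC1 (red) and JVM2 (blue); filled points passed at an adjusted *P* below 0.05. *SCD5* in MEC1 lies farthest to the left at -1.73, and the blue points of the mitochondrial oxidation genes lie at or to the right of 0 except that of *ECI2* at -0.20.

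In both lines, 10 of the 44 members tested in each changed in the same direction, and 8.37% of the 12243 genes tested in both lines did so. Higher in both were the carboxylase *ACACB*, the elongase *ELOVL6* and the oxidation genes *ACADVL* and *ECI1*. Lower in both were the desaturases *SCD*, *FADS1* and *FADS2*, the acyl-CoA synthetase *ACSL4*, the thioesterase *ACOT7* and *FABP5*. Opposite changes passed for 2 members, *ACADM* and *HADH*, both lower in MEC1 and higher in JVM2, beside 7.43% of all genes.

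All 4 cytosolic synthesis genes passed in JVM2, 3 lower and 1 higher, and in MEC1 only *ACACB* did. The shares over all genes tested were 29.3% in JVM2 and 41.7% in MEC1. *FASN* (GRCh38, chr17:82078338-82098294, minus strand, GENCODE v44) stood at 240.5, 232 and 239 CPM in JVM2-CTRL and at 136, 104 and 138 CPM in JVM2-2B17 replicates. It fell by 46.9% (log2 fold change -0.91, SE 0.092, adjusted *P* = 1.2e-05), with JVM2-2B17 replicate 2 the lowest and the arms well apart. The level of *FASN* in MEC1 was 177, 194 and 242 CPM in CTRL and 176, 171 and 204 CPM in 2B17 replicates, so the arms overlapped. It did not pass there (-0.16, SE 0.081, adjusted *P* = 0.14), and without MEC1-CTRL replicate 1 it was -0.25 and passed, whereas without MEC1-CTRL replicate 3, the highest library, it was -0.017. *ACACA*, the carboxylase that supplies *FASN*, showed the same difference between the lines. Its level was 79.6, 79.3 and 87.4 CPM in JVM2-CTRL against 57.9, 58.1 and 59.2 CPM in JVM2-2B17 replicates (log2 fold change -0.49, SE 0.064, adjusted *P* = 0.00011). In MEC1 its arms overlapped, at 141, 146 and 157 CPM against 137, 147 and 145 CPM (log2 fold change -0.047, SE 0.041, adjusted *P* = 0.40). *ACLY*, which opens the pathway, was at 339, 331 and 324 CPM in JVM2-CTRL and at 302, 292 and 299 CPM in JVM2-2B17 replicates. This was a small fall of 0.15 on the log2 scale (SE 0.051, adjusted *P* = 0.040) that passed in 1 of 6 fits with a library left out, the one without JVM2-2B17 replicate 2, and did not pass with DESeq2 or without the filter. Its MEC1 levels of 349.7, 354 and 387 CPM in CTRL and 347, 330.2 and 343 CPM in 2B17 replicates did not overlap either, but the value of -0.097 (SE 0.040, adjusted *P* = 0.061) did not pass.

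*ACACB* rose in both lines, whereas its paralog *ACACA* fell in JVM2 and did not pass in MEC1. It was at 6.81, 7.00 and 6.14 CPM in MEC1-CTRL and 9.59, 8.78 and 9.64 CPM in MEC1-2B17 replicates (log2 fold change 0.49, SE 0.084, adjusted *P* = 0.00011). JVM2 cells had 8.36, 7.64 and 8.37 CPM in CTRL and 12.6, 11.7 and 13.8 CPM in 2B17 replicates (log2 fold change 0.64, SE 0.12, adjusted *P* = 0.0015). The rise held in all 6 fits with a library left out in each line. *ACACB* stayed the minor carboxylase. Per kilobase of exon, its level was 4.05% ± 0.469 (SD, n = 3) of that of *ACACA* in MEC1-CTRL and 5.87% ± 0.478 in MEC1-2B17 cells, and 8.89% ± 0.464 and 19.5% ± 1.42 in JVM2.

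**Figure D2:**
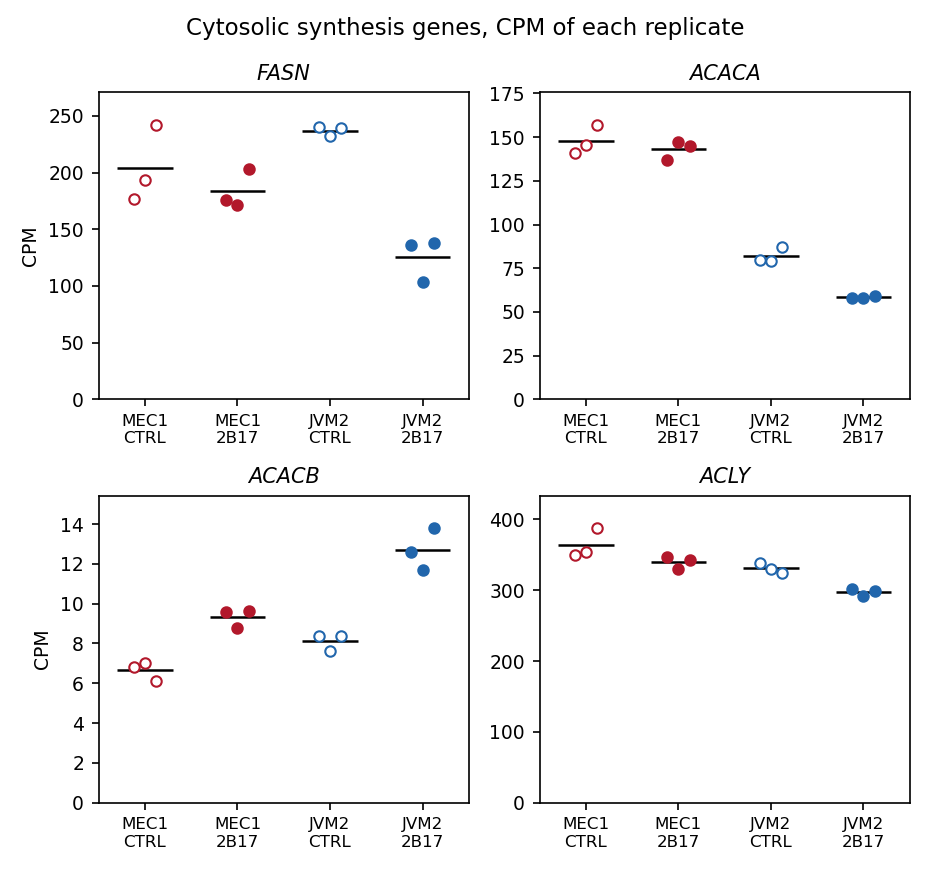
CPM (y axis, from 0) of the 4 cytosolic synthesis genes in each replicate (points, open for CTRL and filled for 2B17) of each population (x axis), with the mean as a bar. The 3 JVM2-2B17 replicates of *FASN*, at 104 to 138 CPM, lie below all 3 JVM2-CTRL replicates, while the MEC1 arms overlap.

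*SCD* (chr10:100347233-100364826, plus strand), the main stearoyl-CoA desaturase, makes oleic acid and had the highest level per kilobase of exon of all members in MEC1-CTRL cells (113 ± 6.13 CPM per kb, SD, n = 3). Its level was 568, 577 and 627 CPM in MEC1-CTRL and 459.5, 437 and 451 CPM in MEC1-2B17 replicates. JVM2 levels were 357, 353 and 362 CPM in CTRL and 278, 230.4 and 283 CPM in 2B17 replicates. Arms were separate in both lines, and the level fell by 24.0% in MEC1 (log2 fold change -0.40, SE 0.038, adjusted *P* = 9.6e-08) and fell by 26.1% in JVM2 (log2 fold change -0.44, SE 0.073, adjusted *P* = 0.00074). *SCD5* (chr4:82629539-82798796, minus strand), a second desaturase of the same kind, gave the largest change of any member, and in MEC1 alone. It stood at 10.9, 12.4 and 14.2 CPM in MEC1-CTRL and at 3.67, 3.77 and 3.81 CPM in MEC1-2B17 replicates, and fell by 69.9% (log2 fold change -1.73, SE 0.10, adjusted *P* = 1.2e-10). JVM2 replicates had more of it, 73.9, 80.5 and 79.3 CPM in CTRL and 75.1, 79.7 and 76.6 CPM in 2B17 cells, with overlapping arms (log2 fold change -0.015, SE 0.062, adjusted *P* = 0.89). As a share of *SCD* per kilobase of exon, *SCD5* went from 2.62% ± 0.209 to 1.04% ± 0.0409 (SD, n = 3) in MEC1, and from 27.0% ± 1.3 to 36.6% ± 5.42 in JVM2, where *SCD* fell and *SCD5* did not pass.

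*FADS2* (plus strand) and *FADS1* (minus strand) overlap on chromosome 11, each transcribed towards the start of the other, and fell together in both lines. *FADS2* was at 395, 408 and 425 CPM in MEC1-CTRL and 292, 264 and 296 CPM in MEC1-2B17 replicates (log2 fold change -0.53, SE 0.043, adjusted *P* = 9.2e-09). The JVM2 levels were 347, 332 and 333 CPM in CTRL and 245, 216 and 250.3 CPM in 2B17 replicates (log2 fold change -0.51, SE 0.064, adjusted *P* = 7.9e-05). *FADS1* was at 255, 249 and 269.7 CPM against 190.8, 182 and 186 CPM in MEC1 (log2 fold change -0.47, SE 0.038, adjusted *P* = 9.3e-09). The fall of *FADS1* in JVM2 was smaller, from 92.1, 89.2 and 95.1 CPM to 80.5, 74.0 and 72.9 CPM (log2 fold change -0.28, SE 0.063, adjusted *P* = 0.0052), but the difference between the lines did not pass (-0.19, SE 0.075, adjusted *P* = 0.067). In no case did the arms overlap, and each call held in all 6 fits with a library left out. The exons of both genes share 490 bases on opposite strands, and the strand setting of the counting is not given in the sources used here, so reads in that stretch may belong to either gene. The neighbouring *FADS3*, a desaturase of sphingoid bases, was low, at 3.21, 4.21 and 3.94 CPM in MEC1-CTRL and 3.55, 3.55 and 3.56 CPM in MEC1-2B17 replicates. In JVM2 it was at 4.68, 4.28 and 3.92 CPM in CTRL and at 5.34, 6.18 and 4.74 CPM in 2B17 replicates. Neither difference passed, with -0.086 (SE 0.12, adjusted *P* = 0.62) for MEC1 and 0.33 (SE 0.17, adjusted *P* = 0.16) for JVM2.

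**Figure D3:**
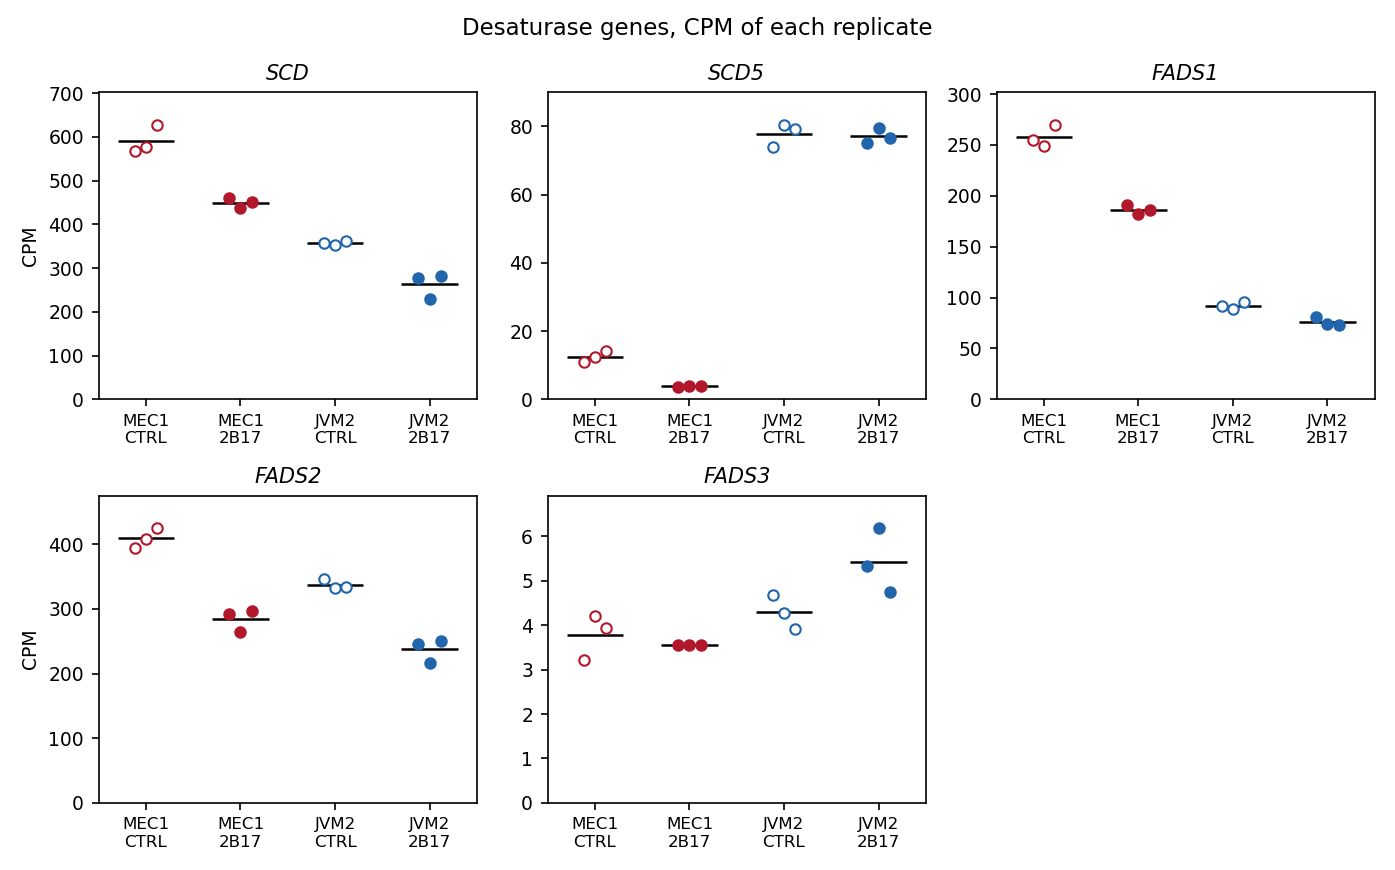
CPM (y axis, from 0) of the 5 desaturase genes in each replicate (points, open for CTRL and filled for 2B17) of each population (x axis), with the mean as a bar. *SCD*, *FADS1* and *FADS2* are lower in the 2B17 arm of both lines, and *SCD5* only in that of MEC1, at 3.67 to 3.81 CPM against 10.9 to 14.2 CPM in CTRL.

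Because *SCD*, *FADS1* and *FADS2* moved together, their promoters are shown, and that of *HADHB* beside them because *HADHA* and *HADHB*, which encode the subunits of 1 enzyme, are transcribed outward from a shared stretch. The windows are those of RefSeq on GRCh38.p14, from 250 bases before to 50 bases after the start of the gene, and are written from 5′ to 3′ on the strand of the gene, with CCAAT boxes in capitals. They lie at chr10:100346983-100347282 (plus strand) for *SCD*, chr11:61816954-61817253 (minus strand) for *FADS1*, chr11:61816154-61816453 (plus strand, 1 of 2 windows) for *FADS2* and chr2:26244689-26244988 (plus strand) for *HADHB*.
SCD: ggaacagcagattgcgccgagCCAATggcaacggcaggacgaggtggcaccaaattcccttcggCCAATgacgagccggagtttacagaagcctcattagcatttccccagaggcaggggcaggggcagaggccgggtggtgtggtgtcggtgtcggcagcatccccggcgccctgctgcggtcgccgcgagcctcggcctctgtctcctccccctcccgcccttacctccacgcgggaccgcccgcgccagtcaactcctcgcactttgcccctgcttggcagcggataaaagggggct
FADS1: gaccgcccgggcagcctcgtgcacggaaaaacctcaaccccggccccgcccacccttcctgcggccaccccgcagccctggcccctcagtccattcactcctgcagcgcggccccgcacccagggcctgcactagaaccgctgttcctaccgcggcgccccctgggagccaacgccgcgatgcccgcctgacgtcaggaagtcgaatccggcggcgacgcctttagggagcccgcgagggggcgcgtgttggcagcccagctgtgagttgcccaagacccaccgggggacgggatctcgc
FADS2: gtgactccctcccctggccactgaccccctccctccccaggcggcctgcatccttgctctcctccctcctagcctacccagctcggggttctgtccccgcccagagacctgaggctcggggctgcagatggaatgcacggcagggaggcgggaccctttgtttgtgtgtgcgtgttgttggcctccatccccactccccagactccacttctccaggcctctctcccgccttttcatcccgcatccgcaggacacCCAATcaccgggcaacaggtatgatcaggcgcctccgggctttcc
HADHB: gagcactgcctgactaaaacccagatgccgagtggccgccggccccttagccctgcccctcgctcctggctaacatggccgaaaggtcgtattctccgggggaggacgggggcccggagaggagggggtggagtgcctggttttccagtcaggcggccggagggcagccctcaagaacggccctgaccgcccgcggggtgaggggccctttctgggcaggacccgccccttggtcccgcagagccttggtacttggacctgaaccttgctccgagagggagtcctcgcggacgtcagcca
The *HADHA* window shares 194 of its bases with that of *HADHB*, and 500 bases separate the *FADS1* window from the nearer *FADS2* window. Of the members, 39 had at least 1 window, and *FASN* had none. The CCAAT box (CCAAT on either strand) was found in the windows of 18 of these 39, among them *SCD*, *SCD5*, *FADS2*, *ACLY*, *ACACA* and *ACACB*, and in those of 42.5% of all 15345 genes. In *SCD* it occurred at 229 and 186 bases before the start, and the *FADS1* and *HADHB* windows held none. In the *FADS2* window shown, it lay 5 bases after the start, and the other *FADS2* window held none. The core of the sterol regulatory element (TCACCCCAC) was found in *ACSL1* and *ACSL6* and in 0.6% of all genes, and its relaxed form (TCACNCCAC, which contains the core) in the same 2 members and 1.53% of genes. The E-box (CACGTG) was found in *ELOVL4* and *ELOVL5* and in 10.9% of genes, and the DR1 repeat in 0 members and 0.033% of genes. Each search covered both strands, and a match describes letters in this window only.

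Of the elongation genes, 2 of 6 passed in MEC1 and 2 of 5 in JVM2, beside 41.7% and 29.3% of all genes tested. *ELOVL6*, the elongase of palmitate, rose a little in both lines. It was at 33.0, 33.7 and 30.6 CPM in MEC1-CTRL and 37.0, 35.5 and 36.7 CPM in MEC1-2B17 replicates (log2 fold change 0.17, SE 0.050, adjusted *P* = 0.013), and this did not pass without MEC1-CTRL replicate 3 (0.12, adjusted *P* = 0.055). In JVM2 it went from 27.5, 29.4 and 28.3 CPM to 34.7, 36.3 and 34.5 CPM (log2 fold change 0.31, SE 0.076, adjusted *P* = 0.0095). *ELOVL5*, which extends polyunsaturated chains, rose in JVM2 only (log2 fold change 0.34, SE 0.067, adjusted *P* = 0.0021), with 0.027 in MEC1. *ELOVL7* was low in MEC1, at 3.42, 3.34 and 3.73 CPM in CTRL and 1.95, 2.69 and 2.49 CPM in 2B17 replicates (log2 fold change -0.56, SE 0.14, adjusted *P* = 0.0028), and it was not listed for JVM2. *ELOVL1*, *HSD17B12* and *TECR*, the last 2 of which reduce the lengthened chain, did not pass in either line, with log2 fold changes from -0.0070 to 0.033 in MEC1 and from -0.30 to 0.13 in JVM2. *TECR* shares 8.9% of its exon bases with *DNAJB1* on the opposite strand. Of the mitochondrial synthesis genes, *MCAT*, which loads malonyl groups, rose in MEC1 (log2 fold change 0.26, SE 0.058, adjusted *P* = 0.0012) and stood at 0.024 in JVM2. *OXSM* and *MECR* did not pass in either line, and *OXSM* shares 21.6% of its exon bases with *NGLY1* on the opposite strand.

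Among the acyl-CoA synthetases, which activate free fatty acids, *ACSL4* prefers arachidonic acid and fell in both lines. Its level was 242, 243 and 255 CPM in MEC1-CTRL and 172, 175 and 164 CPM in MEC1-2B17 replicates (log2 fold change -0.54, SE 0.038, adjusted *P* = 1.3e-09). JVM2 cells had 133, 152 and 151 CPM in CTRL and 113, 112 and 111 CPM in 2B17 replicates (log2 fold change -0.38, SE 0.066, adjusted *P* = 0.00095). The arms were apart in both lines, and *ACSL4* went from 82.9% ± 2.40 to 56.4% ± 1.40 (SD, n = 3) of *ACSL1* per kilobase of exon in MEC1 and from 66.5% ± 3.04 to 48.4% ± 2.99 in JVM2. *ACSL1* and *ACSL5* did not pass in either line, with log2 fold changes of -0.034 to 0.087. *ACSL3* fell in MEC1 (-0.32, SE 0.036, adjusted *P* = 7.0e-07), and its JVM2 value of -0.12 did not pass, although without JVM2-2B17 replicate 2 it did at -0.18. *ACSL6* was near the lower end of detection in MEC1, at 0.972, 1.16 and 1.02 CPM in CTRL and 1.54, 1.93 and 1.70 CPM in 2B17 replicates (log2 fold change 0.71, SE 0.18, adjusted *P* = 0.0032). *ACSM3*, a medium-chain synthetase, was higher in JVM2, at 11.1, 9.69 and 9.75 CPM in CTRL and 16.8, 17.7 and 15.8 CPM in 2B17 replicates (log2 fold change 0.72, SE 0.11, adjusted *P* = 0.00035). Its MEC1 levels of 3.92, 4.15 and 2.98 CPM in CTRL and 4.26, 5.17 and 4.44 CPM in 2B17 replicates lay in the same order but did not pass (log2 fold change 0.32, SE 0.13, adjusted *P* = 0.051). *ACSM3* shares 11.5% of its exon bases with *ERI2* on the opposite strand.

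The thioesterases, which free fatty acids from coenzyme A, did not move as a pair. *ACOT7* fell in both lines, from 37.6, 37.4 and 37.9 CPM to 31.9, 29.3 and 30.9 CPM in MEC1 (log2 fold change -0.29, SE 0.048, adjusted *P* = 6.6e-05). In JVM2 it went from 57.3, 58.8 and 59.5 CPM to 50.9, 48.9 and 49.1 CPM (log2 fold change -0.24, SE 0.063, adjusted *P* = 0.014), which did not pass with DESeq2 or without JVM2-CTRL replicate 2 or 3. *ACOT13* rose in JVM2 (log2 fold change 0.36, SE 0.11, adjusted *P* = 0.024), a call lost in 3 of 6 fits with a library left out (JVM2-CTRL replicate 1, JVM2-CTRL replicate 2 or JVM2-2B17 replicate 1), and stood at -0.10 in MEC1. *FABP5*, a binding protein that carries fatty acids to the nucleus and to membranes, fell in both lines. It was at 52.4, 50.5 and 57.9 CPM in MEC1-CTRL and 48.8, 44.9 and 46.9 CPM in MEC1-2B17 replicates (log2 fold change -0.19, SE 0.052, adjusted *P* = 0.0054). The JVM2 levels of *FABP5* were 57.1, 50.2 and 57.9 CPM in CTRL and 39.1, 40.1 and 42.4 CPM in 2B17 replicates (log2 fold change -0.44, SE 0.077, adjusted *P* = 0.00099). *FABP5* and *SCD* have pseudogene copies whose reads could be counted in part for the gene. *PPARA*, the nuclear receptor that induces oxidation genes, was at 31.3, 31.0 and 30.3 CPM in MEC1-CTRL and 34.9, 35.6 and 35.8 CPM in MEC1-2B17 replicates (log2 fold change 0.20, SE 0.046, adjusted *P* = 0.0019). In JVM2 its arms overlapped, at 22.0, 22.0 and 23.4 CPM and 21.2, 23.2 and 24.6 CPM (log2 fold change 0.030, SE 0.091, adjusted *P* = 0.84).

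The 2 members that passed in opposite directions, of 44 tested in both lines, were mitochondrial oxidation genes, beside 7.43% of all genes. Another 2 of the 15 mitochondrial oxidation genes passed in the same direction. *ACADM*, the medium-chain acyl-CoA dehydrogenase, stood at 139, 137 and 138 CPM in MEC1-CTRL and at 113, 117 and 109.7 CPM in MEC1-2B17 replicates (log2 fold change -0.28, SE 0.033, adjusted *P* = 9.6e-07). In JVM2 it was at 215, 217 and 217 CPM in CTRL and 269.7, 277 and 266 CPM in 2B17 replicates (log2 fold change 0.32, SE 0.052, adjusted *P* = 0.00051). It thus fell by 17.9% in one line and rose by 25.3% in the other, with separate arms in both. *HADH*, which catalyses the third step on shorter chains, did the same. It went from 61.8, 60.8 and 59.7 CPM to 47.3, 49.9 and 49.7 CPM in MEC1 (log2 fold change -0.31, SE 0.042, adjusted *P* = 6.2e-06) and from 55.0, 53.8 and 54.3 CPM to 67.3, 70.6 and 67.3 CPM in JVM2 (log2 fold change 0.33, SE 0.061, adjusted *P* = 0.0015). Both genes held their calls in all 6 fits with a library left out in each line.

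*ACADVL* and *ECI1* passed in the same direction in both lines, and *HADHA* and *HADHB* passed in JVM2 only. *ACADVL*, the very long-chain acyl-CoA dehydrogenase, rose in both lines, from 62.2, 64.6 and 59.5 CPM to 73.0, 74.7 and 76.1 CPM in MEC1 (log2 fold change 0.26, SE 0.041, adjusted *P* = 3.2e-05). In JVM2 it went from 115, 115 and 117 CPM to 133, 128 and 137 CPM (log2 fold change 0.20, SE 0.056, adjusted *P* = 0.018), where the arms did not overlap but the call held in only 1 of 6 fits with a library left out, the one without JVM2-2B17 replicate 2. *ECI1*, an isomerase needed for unsaturated chains, also rose in both, from 58.4, 62.3 and 59.0 CPM to 72.9, 69.8 and 72.2 CPM in MEC1 (log2 fold change 0.26, SE 0.040, adjusted *P* = 3.8e-05). Its JVM2 levels were 29.1, 28.5 and 25.6 CPM in CTRL and 35.1, 38.0 and 32.0 CPM in 2B17 replicates (log2 fold change 0.34, SE 0.090, adjusted *P* = 0.014), and the call was lost without JVM2-CTRL replicate 3. *HADHA* and *HADHB*, the subunits of the trifunctional protein that oxidises long chains, did not pass in MEC1 (-0.038, SE 0.034, and -0.037, SE 0.034). Both rose in JVM2, *HADHA* by 0.17 (SE 0.058, adjusted *P* = 0.047) and *HADHB* by 0.24 (SE 0.059, adjusted *P* = 0.010). *HADHA* did not pass with DESeq2 or in 4 of 6 fits with a library left out (JVM2-CTRL replicate 2 or 3, JVM2-2B17 replicate 1 or 3), and *HADHB* did not pass in 2 (JVM2-CTRL replicate 2, JVM2-2B17 replicate 1).

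**Figure D4:**
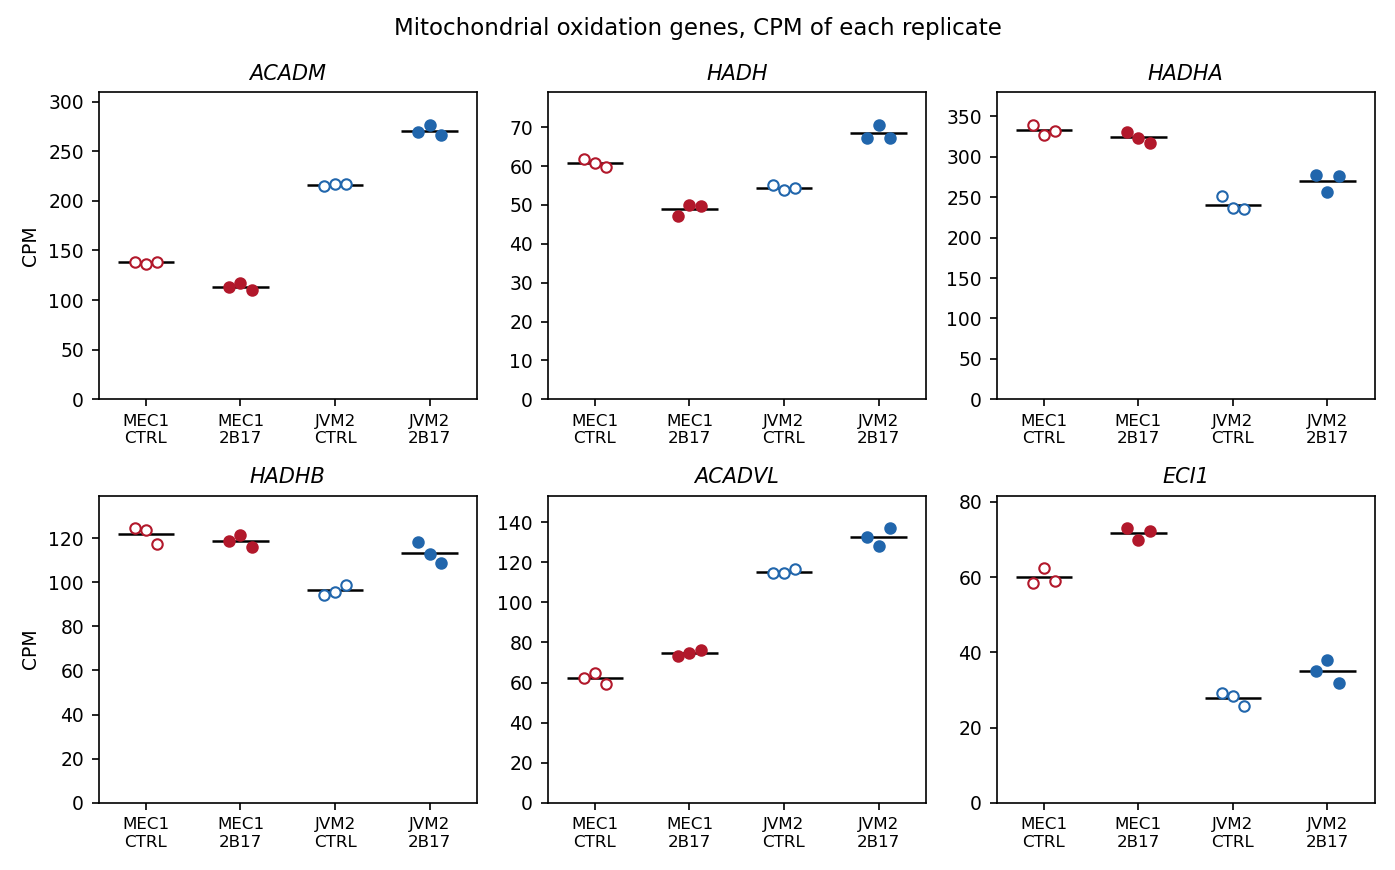
CPM (y axis, from 0) of 6 mitochondrial oxidation genes in each replicate (points, open for CTRL and filled for 2B17) of each population (x axis), with the mean as a bar. The 2B17 points of *ACADM* and *HADH* lie under those of CTRL in MEC1 and above them in JVM2, while those of *ACADVL* and *ECI1* lie above in both.

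Of the other mitochondrial members, *ACADSB*, which acts on branched chains, rose in MEC1 (0.20, SE 0.048, adjusted *P* = 0.0026), as did the thiolase *ACAA2* (0.18, SE 0.036, adjusted *P* = 0.00038), and neither passed in JVM2 (0.15 and 0.0035), where *ACADSB* passed without JVM2-2B17 replicate 2. *ECI2*, a second isomerase, fell in MEC1 (-0.30, SE 0.048, adjusted *P* = 5.2e-05), and its JVM2 value of -0.20 passed only without JVM2-2B17 replicate 2 (-0.31). The electron carriers *ETFB* (-0.16, adjusted *P* = 0.022) and *ETFDH* (-0.18, adjusted *P* = 0.011) fell in MEC1. The *ETFB* call was lost with DESeq2 and without MEC1-CTRL replicate 1 or 3 or MEC1-2B17 replicate 2 or 3, and the *ETFDH* call without MEC1-CTRL replicate 1 or 2 or MEC1-2B17 replicate 3. *ETFDH* shares 6.0% of its exon bases with *PPID* on the opposite strand. *ACADS*, the short-chain dehydrogenase, rose in JVM2 (0.23, SE 0.076, adjusted *P* = 0.039), which did not pass with DESeq2 or when any JVM2-CTRL replicate or JVM2-2B17 replicate 1 was left out. *ECHS1*, *DECR1* and *ETFA* passed in neither line, with log2 fold changes of -0.093 to 0.069 in MEC1 and 0.065 to 0.21 in JVM2. Of the peroxisomal members, *ACOX3*, an oxidase of branched chains, fell in MEC1 (-0.41, SE 0.053, adjusted *P* = 4.5e-06) and did not pass in JVM2 (0.17, SE 0.11, adjusted *P* = 0.28), and *ACAA1* and *HSD17B4* passed in neither line.

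The difference between the lines was tested directly, as the change in MEC1 minus the change in JVM2 on the log2 scale. It passed for 13 of 45 members, 28.9% beside 32.0% of the 15130 genes tested. It was positive for *FASN* (0.76, SE 0.14, adjusted *P* = 0.00029), *ACACA* (0.45, SE 0.080, adjusted *P* = 0.00021) and *FABP5*, all of which fell in JVM2 and fell less or did not pass in MEC1. The largest negative difference was that of *SCD5* (-1.71, SE 0.12, adjusted *P* = 7.1e-10), and those of *ELOVL5* (-0.31) and *ACOT13* (-0.46) were negative too. All 7 oxidation genes among the 13 had a lower change in MEC1 than in JVM2, namely *HADH* (-0.64, SE 0.071, adjusted *P* = 6.1e-07), *ACADM* (-0.60, SE 0.064, adjusted *P* = 3.3e-07), *ACOX3* (-0.57), *ETFDH* (-0.27), *HADHB* (-0.27), *DECR1* (-0.27) and *HADHA* (-0.20). These 7 of 18 oxidation genes were a share of 38.9%, beside 32.0% of all genes tested. Over all genes, 2320 of the differences that passed were positive and 2529 negative. Of the 13, the values of 9 passed in each of 12 fits with a library left out, whereas *DECR1* passed in 9, *HADHA* in 7, *FABP5* in 5 and *ETFDH* in 3. For *SCD* (0.046, SE 0.085, adjusted *P* = 0.72) and *FADS2* (-0.015, SE 0.080, adjusted *P* = 0.91) the difference did not pass and was small beside the falls in either line.

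**Figure D5:**
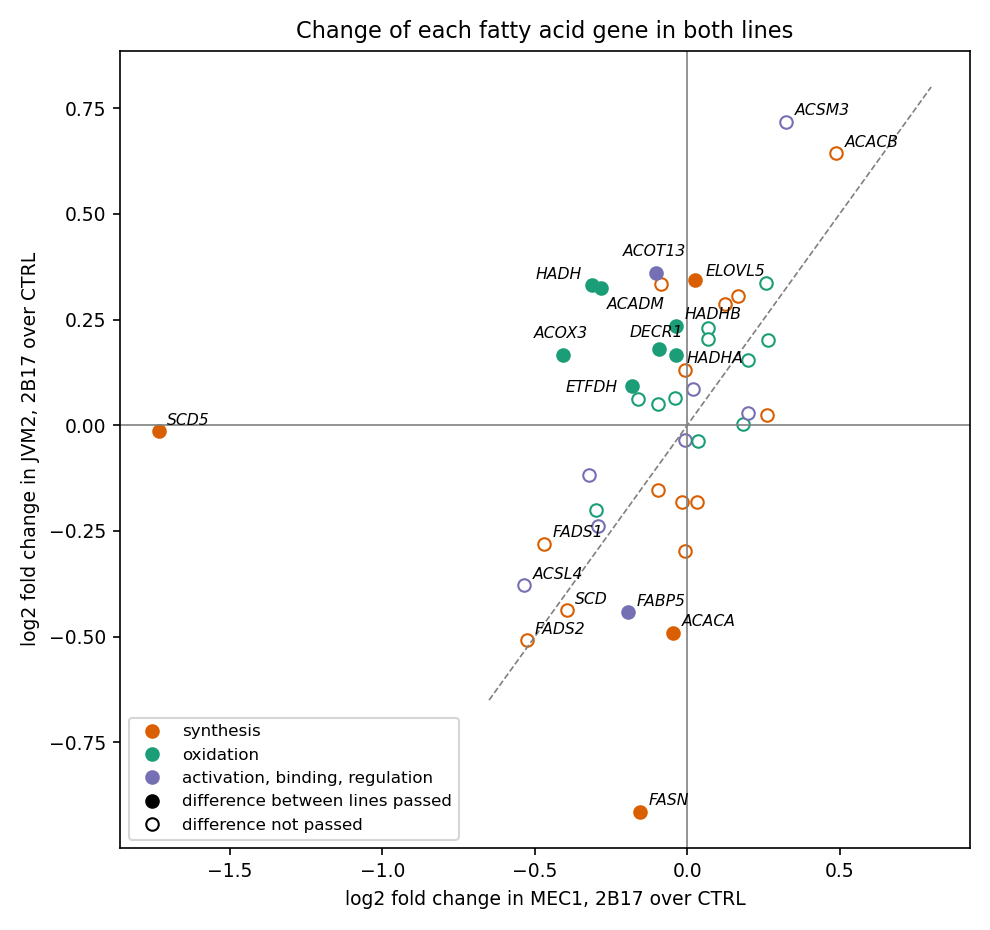
Log2 fold change, 2B17 relative to CTRL, in MEC1 (x axis) and JVM2 (y axis) of the 44 members tested in both, by group of roles (colour), filled where the difference between the lines passed; the dashed line marks equal change. *FASN* and *ACACA* lie below the line near 0 on the x axis, *SCD5* far to the left, and *ACADM* and *HADH* at upper left.

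In JVM2 the medians of synthesis and oxidation lay on opposite sides of 0, and in MEC1 they lay close together. Of the JVM2 genes, 3 synthesis genes were higher and 6 lower of 17 (median log2 fold change -0.15), and 7 oxidation genes were higher and 0 lower of 18 (median 0.17). These shares of 52.9% and 38.9% stood beside 29.3% of all JVM2 genes tested (14.1% higher, 15.3% lower). Of the 7 oxidation genes higher in JVM2, only *ACADM* and *HADH* kept their calls in every fit with a library left out. The calls of *ACADVL*, *ECI1*, *HADHA*, *HADHB* and *ACADS* were each lost in some of these fits. In MEC1, 3 synthesis genes were higher and 5 lower of 18 (median -0.031) and 4 oxidation genes were higher and 6 lower of 18 (median -0.038). These shares of 44.4% and 55.6% stood beside 41.7% of all MEC1 genes tested (20.0% higher, 21.6% lower). The median log2 deviation of the oxidation genes from the mean of JVM2-CTRL was 0.20, 0.19 and 0.095 in the JVM2-2B17 replicates and -0.020, 0.012 and -0.0012 in the JVM2-CTRL replicates. For the synthesis genes it was -0.070, -0.18 and -0.023 in the JVM2-2B17 replicates and 0.00010, -0.0066 and 0.011 in the JVM2-CTRL replicates, so that replicate 2 was the lowest. Without it, the median over synthesis genes was -0.058 in JVM2. These medians are descriptions over chosen genes and carry no test.

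The mRNAs of *SREBF1* and *SREBF2*, which encode sterol-responsive factors of lipid synthesis, were lower in both lines. A link to the changes of the synthesis genes was not tested. *SREBF1*, the regulator of fatty acid synthesis, was at 40.0, 42.3 and 45.3 CPM in MEC1-CTRL and 31.4, 26.9 and 33.1 CPM in MEC1-2B17 replicates (log2 fold change -0.48, SE 0.065, adjusted *P* = 7.5e-06). In JVM2 it was at 70.9, 72.8 and 67.7 CPM in CTRL and 57.9, 42.7 and 56.9 CPM in 2B17 replicates (log2 fold change -0.42, SE 0.099, adjusted *P* = 0.0069). Its arms did not overlap, and JVM2-2B17 replicate 2 was again the lowest. *SREBF2*, which acts mainly on cholesterol genes, fell by 0.12 in MEC1 (SE 0.039, adjusted *P* = 0.023) and by 0.37 in JVM2 (SE 0.12, adjusted *P* = 0.039) on the log2 scale. The MEC1 call of *SREBF2* was lost when both DESeq2 and the exact test of edgeR had to pass and without MEC1-2B17 replicate 1 or 2 and the JVM2 call when any JVM2-CTRL replicate was left out, and without JVM2-2B17 replicate 2 its JVM2 value was -0.20.

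Of 118 other genes of fatty acid metabolism, 89 were tested in MEC1, with 23 higher and 25 lower, and 88 in JVM2, with 13 higher and 12 lower. The share that changed was 53.9% in MEC1, beside 41.7% of all genes, and 28.4% in JVM2, beside 29.3% of all genes. Among the 84 tested in both lines, 7 changed in the same direction, 3 higher and 4 lower, and 5 in opposite directions, beside 8.37% and 7.43% of all genes. Beside *SREBF1* and *SREBF2*, the lower ones were *MID1IP1*, an activator of acetyl-CoA carboxylase (log2 fold change -0.27 in MEC1 and -0.54 in JVM2), and *MFSD2A*, a transporter of lysophospholipids (-0.37 and -0.67). The higher ones were *HSD17B8*, a reductase of mitochondrial fatty acid synthesis (0.67 and 0.92), *PHYH*, which starts the peroxisomal breakdown of phytanic acid (0.67 and 0.85), and *ACBD7*, an acyl-CoA binding protein. *ACBD7* stood at 0.832 ± 0.0895 CPM in MEC1-CTRL (SD, n = 3), 4.03 ± 0.412 in MEC1-2B17, 0.392 ± 0.458 in JVM2-CTRL and 2.57 ± 0.548 in JVM2-2B17 cells. Oxidation genes outside the members were 7 higher and 6 lower of 26 in MEC1 and 3 higher and 0 lower of 25 in JVM2. The JVM2 share was below those of all genes that changed (29.3%) and that were higher (14.1%), and the MEC1 share was above the 41.7% of all genes that changed.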

How the data were processed

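Ribosomal RNA was depleted from total RNA of 3 biological replicates of each of 4 populations and sequenced with paired ends on Illumina instruments at 2 sites, which the sources used here do not give per library. Reads were trimmed and mapped to hg38 by the authors in the MUGQIC pipeline (TopHat2 2.0.14 and HTSeq in the submitters' processing notes), who deposited, for each line, raw read counts per Ensembl gene and library, without normalization. Deposited log2 fold changes, log CPM values, *P*-values of edgeR and DESeq2 and 12 columns of rounded normalized values were not used. Each table lists genes with at least 10 counts over its 6 libraries.

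Libraries were grouped by their titles. Each line was fitted on its whole table with edgeR 4.0.16 in R 4.3.3 (TMM, filterByExpr with min.count 10 and min.total.count 15, quasi-likelihood F-test, two-sided, Benjamini-Hochberg, 0.05), and the interaction of line and arm in 1 fit of 12 libraries over genes in both tables. The scripts were tested on simulated data with 200 changed genes. The common biological coefficient of variation, the spread between replicates beyond counting error, was 4.22% in MEC1 and 6.92% in JVM2. Levels per kilobase used GENCODE v44 exons. Members, role lists and other lists were chosen with earlier results of these data known. Genes given with every replicate were those past the threshold in both lines, the 3 largest changes per line and between lines, and a list of key steps (*SCD*, *SCD5*, *ACACA*, *ACACB*, *FASN*, *ACLY*, *FADS1*, *FADS2*, *FADS3*, *PPARA*). Outside the members, *UGT2B17*, *SREBF1*, *SREBF2* and pathway genes changed the same way in both lines were named. Alternatives were DESeq2 1.42.0, both DESeq2 and edgeR's exact test, RLE, library size only, no filter, at least 10 counts in every library, a replicate block, and each replicate left out. Summaries used Python 3.11.15 and pandas 2.3.3.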

Additional observations from a re-analysis of the deposited data

Results flagged for a closer look

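The change in MEC1 minus the change in JVM2, tested as the interaction of line and arm with edgeR's quasi-likelihood test, passed at an adjusted *P* below 0.05 for 13 members. On the log2 scale the difference was -1.71 for *SCD5*, which fell in MEC1 alone, and -0.64 for *HADH* and -0.60 for *ACADM*, which fell in MEC1 and rose in JVM2. It was -0.57 for *ACOX3*, which fell in MEC1, and -0.46 for *ACOT13* and -0.31 for *ELOVL5*, which rose in JVM2. Smaller negative differences were those of *ETFDH* (-0.27), *HADHB* (-0.27), *DECR1* (-0.27) and *HADHA* (-0.20). *DECR1* passed in neither line on its own, at -0.093 in MEC1 and 0.18 in JVM2. Positive differences were 0.76 for *FASN* and 0.45 for *ACACA*, which fell in JVM2, and 0.25 for *FABP5*, which fell in both lines. The lines also differed in control construct, antibiotic and depth, which cannot be told apart from the line.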

How the results depend on the processing

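Counts of members stayed within 1.5 times their value under each alternative run. With a replicate left out, 22 to 25 members passed in MEC1 and 14 to 24 in JVM2, 7 to 13 changed the same way in both lines, and the difference between the lines passed for 9 to 15. The median of the synthesis genes in JVM2 went from -0.15 to -0.058 without JVM2-2B17 replicate 2, its only shift above the spread between replicates, and ranged from -0.16 to -0.058 with a replicate left out. The only reversal without a replicate left out was that of *ACAA2* in JVM2, not passed, from 0.0035 to -0.0014 with library size only. With a replicate left out, 20 values changed sign, all of genes that had not passed. In MEC1 the ranges of these genes were -0.0015 to 0.055 (*ELOVL5*), -0.011 to 0.018 (*HSD17B12*), -0.049 to 0.032 (*TECR*), -0.061 to 0.040 (*MECR*), -0.021 to 0.0072 (*ACSL5*) and -0.014 to 0.19 (*ACADS*). In JVM2 they were -0.049 to 0.0076 (*SCD5*), -0.030 to 0.087 (*MCAT*), -0.062 to 0.0055 (*ACSL5*), -0.011 to 0.12 (*ETFB*), -0.042 to 0.042 (*ACAA2*), -0.10 to 0.0050 (*HSD17B4*) and -0.020 to 0.091 (*PPARA*). Of the values of single genes under the other settings, 636 kept their direction and their side of the threshold, 12 lost and 9 gained a call. With a replicate left out, 495 did so, 39 lost and 10 gained one. No scaling moved the median of all genes by 0.1. Deviations of same-numbered replicates of the arms had correlations of -0.034, -0.0033 and 0.038 in MEC1, and of 0.073, 0.11 and -0.0025 in JVM2. Differently numbered pairs gave -0.074 to 0.081 in MEC1 and -0.10 to 0.052 in JVM2. In JVM2, the values of replicates 1 and 2 thus lay above those of every differently numbered pair. All these values were small, and replicates were taken to share only a number. Whether JVM2 replicates shared more was not tested. With the replicate block, 6897 of all MEC1 genes (6909 without it) and 4236 of all JVM2 genes (3821 without it) passed, and among members 27 and 23, with 13 the same way in both lines and 16 differing between them. JVM2 libraries held fewer counts and varied more between replicates, and which of these limits small changes was not tested. The requirement that both DESeq2 and edgeR's exact test pass was not run for the interaction or the medians.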

Other observations

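Of the 118 genes of fatty acid metabolism outside the members, 84 were tested in both lines. The 5 of these that passed in opposite directions, beside 7.43% of all genes, were looked at after their values were seen. *OLAH*, the thioesterase that ends synthesis at medium chain length, rose in MEC1 (CTRL 0.371 ± 0.0533 CPM, 2B17 1.17 ± 0.377 CPM, SD, n = 3) and fell in JVM2 (CTRL 2.28 ± 0.0815 CPM, 2B17 1.00 ± 0.0943 CPM). *ACOT4*, a peroxisomal thioesterase, rose in MEC1 to 13.3 ± 0.241 CPM in 2B17 cells (log2 fold change 0.41), and was at 1.97 ± 0.512 CPM in JVM2-CTRL and 0.180 ± 0.0779 CPM in JVM2-2B17 cells. *SIRT5*, a mitochondrial deacylase, fell by 0.15 on the log2 scale in MEC1 (adjusted *P* = 0.021 by edgeR, not passed with DESeq2 or without MEC1-CTRL replicate 2 or MEC1-2B17 replicate 2 or 3) and rose by 1.10 in JVM2 (adjusted *P* = 2.2e-05 by edgeR). *MBTPS1*, the protease that activates SREBP proteins, rose in MEC1 (log2 fold change 0.19) and fell in JVM2 (-0.27). *PPRC1*, a coactivator of mitochondrial genes, rose in MEC1 (0.25) and fell in JVM2 (-0.46), where the call was lost when any JVM2-CTRL replicate was left out. For all 5 the difference between the lines passed as well.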
